A study of Homo sapiens with 8 samples.

Results

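The genes described here encode the proteasome, its activators and its assembly chaperones. They are the genes whose symbol is PSM followed by a letter from A to G and a number, which gave 48 of the 18164 genes in the table. RNA was sequenced from whole tumors of HCC1937, a human cell line of triple-negative breast cancer, implanted orthotopically into NCG mice, a NOD-derived strain that carries edits of Prkdc and Il2rg and lacks its own T, B and NK cells. The mice received vehicle or 500 mg/kg/day of NMN (nicotinamide mononucleotide, from which cells make NAD+), and each group has 4 tumors, called Vehicle 1 to 4 and NMN 1 to 4 after the labels. Age, sex and length of treatment are not given. Nothing in the labels says whether every tumor had a mouse of its own, so a p-value here reflects only the spread among these samples, which may be technical. All tumors derive from 1 cell line, and in bulk tissue fewer cells of a type and less RNA per cell cannot be told apart.

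The proteasome is the protease that degrades ubiquitin-tagged proteins. Its core is a barrel of alpha rings, which gate the entrance, around beta rings, in which PSMB5, PSMB6 and PSMB7 carry the active sites. A regulatory particle of ATPases (PSMC genes) and non-ATPase subunits (PSMD genes) binds the ubiquitinated protein, unfolds it and feeds it into the core. Interferon gamma, acting in part through IRF1, induces the alternative catalytic subunits PSMB8, PSMB9 and PSMB10, which replace PSMB5, PSMB6 and PSMB7 in newly assembled particles. The result is the immunoproteasome, known for cutting peptides that suit presentation on MHC class I. The same signal induces PSME1 and PSME2, whose products form an activator ring that docks on the core without ATP.

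Promoter windows of 3 of the 5 inducible genes, which hold matches to sequence elements of the interferon or stress pathways, are printed as examples. A window of PSMB8 and that of PSME1, not printed, also hold such matches. Each is the 250 bases before the annotated start on the gene's own strand, from RefSeq on GRCh38.p14, in lower case with motif matches in capitals. The motifs searched on both strands were the core of the interferon-stimulated response element (GAAANNGAA), the gamma interferon activation site (TTCNNNGAA) and the core of the antioxidant response element (TGACNNNGC). Windows are at chr16:67936851-67937100 on the minus strand for PSMB10, chr14:24146611-24146860 on the minus strand for PSME2 and chr6:32853942-32854191 on the plus strand for PSMB9.
PSMB10: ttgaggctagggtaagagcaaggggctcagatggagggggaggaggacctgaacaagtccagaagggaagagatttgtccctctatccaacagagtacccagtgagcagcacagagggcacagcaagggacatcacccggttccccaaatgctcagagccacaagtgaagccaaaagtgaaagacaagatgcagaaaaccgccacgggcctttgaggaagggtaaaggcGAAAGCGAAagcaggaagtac
PSME2: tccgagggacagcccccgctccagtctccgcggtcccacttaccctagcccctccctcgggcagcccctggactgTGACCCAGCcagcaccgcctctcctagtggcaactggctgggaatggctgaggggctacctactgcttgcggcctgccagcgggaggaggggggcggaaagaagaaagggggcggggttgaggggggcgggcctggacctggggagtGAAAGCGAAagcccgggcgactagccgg
PSMB9: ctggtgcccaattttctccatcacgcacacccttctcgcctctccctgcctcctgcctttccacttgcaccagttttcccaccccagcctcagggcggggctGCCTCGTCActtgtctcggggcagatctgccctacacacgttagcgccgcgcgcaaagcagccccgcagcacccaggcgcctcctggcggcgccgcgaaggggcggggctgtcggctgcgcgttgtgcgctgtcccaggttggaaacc
The PSMB10 and PSME2 windows share the same match to the response element, GAAAGCGAA, which begins 21 and 28 bases before the start. PSME2 also holds TGACCCAGC, a match to the antioxidant core. In the PSMB9 window the capitals mark such a match on the opposite strand, and the window lies between the divergent starts of PSMB9 and TAP1, the peptide transporter gene, which are 488 bases apart.

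Of the 48 genes, 42 had a promoter window, and no motif occurred in all of the inducible genes. The interferon response core occurred before at least 1 start of 8.41% of the 27305 genes with a window (6.88% of 35116 windows). It occurred in 5 of the 42 members: the inducible PSMB10 and PSME2, and PSMA4, PSMB4 and PSMG4. The gamma interferon activation site occurred in 8.09% of genes (6.57% of windows) and in 7 members. Of the inducible genes only PSMB8 held it, at a second start, and the others were PSMB5, PSMA2, PSMA8, PSMC4, PSMD3 and PSME3. The antioxidant core occurred in 13.2% of genes (10.9% of windows) and in 13 members, among them PSMB9, PSME1, PSME2 and PSMG1. They also include 5 of the 26 constitutive core and regulatory particle genes with a window. CCAAT, on either strand, occurred in 37.0% of genes (32.0% of windows) and in 19 members. A match describes letters in the window, not a bound site, and a missing match says nothing of the factor.

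Values are TPM, transcript abundances that are scaled by transcript length and can therefore be compared between genes. A difference between groups is given on the log2(TPM + 1) scale as NMN minus Vehicle with its standard error, from a limma fit across all genes that reached 1 TPM in at least 4 tumors. This filter kept 13358 genes and 46 of the 48 members. It removed PSMA8, a testis core subunit at 0.46 to 1.09 TPM, and PSMB11, the core subunit of thymic epithelium, which was listed at 0 in 7 tumors and at 0.08 TPM in Vehicle 2.

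No member differed between NMN and Vehicle after adjustment over all genes tested, and most had a slightly lower mean under NMN. With limma's Benjamini-Hochberg adjusted p under 0.05, 0 of 46 members were called. The same held for 0 of 13358 genes (0.00%), with a smallest adjusted p of 0.221 over all genes and 0.459 among the members. The mean log2 level was lower in NMN for 41 of the 46 members, against 49.0% of all genes, and the members' median difference was -0.10 against 0.0040 over all genes. At an unadjusted p under 0.05, 8 members were lower and 0 higher, or 17.4%, where 2.15% of all genes were lower and 6.94% differed in either direction. These 8 were PSMB8, PSMB9, PSMB10, PSME2, PSMB7, the core chaperone genes PSMG1 and PSMG4, and the base chaperone gene PSMD5. Without Vehicle 4 this count was 4, with 292 of all genes lower at this level. Leaving out NMN 1 gave 4 members and 189 of all genes, and leaving out NMN 3 gave 5 members and 189 of all genes. Without NMN 4 the count was 7 members, while the number of all genes lower at this level was 652 in place of 287. The 4 NMN tumors all lay below the 4 Vehicle tumors for 4 members (8.70%), PSMB9, PSME2, PSMB7 and PSMG1, against 0.966% of all genes in that direction and 3.05% in either. After median-of-ratios scaling these were 3 members, PSMB9, PSMB10 and PSMD5, with 257 of all genes in place of 129. After quantile normalization they were 4, PSMB9, PSME2, PSMB7 and PSMB10, with 300 of all genes, and without NMN 4 they were 10, with 821.

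**Figure D1:**
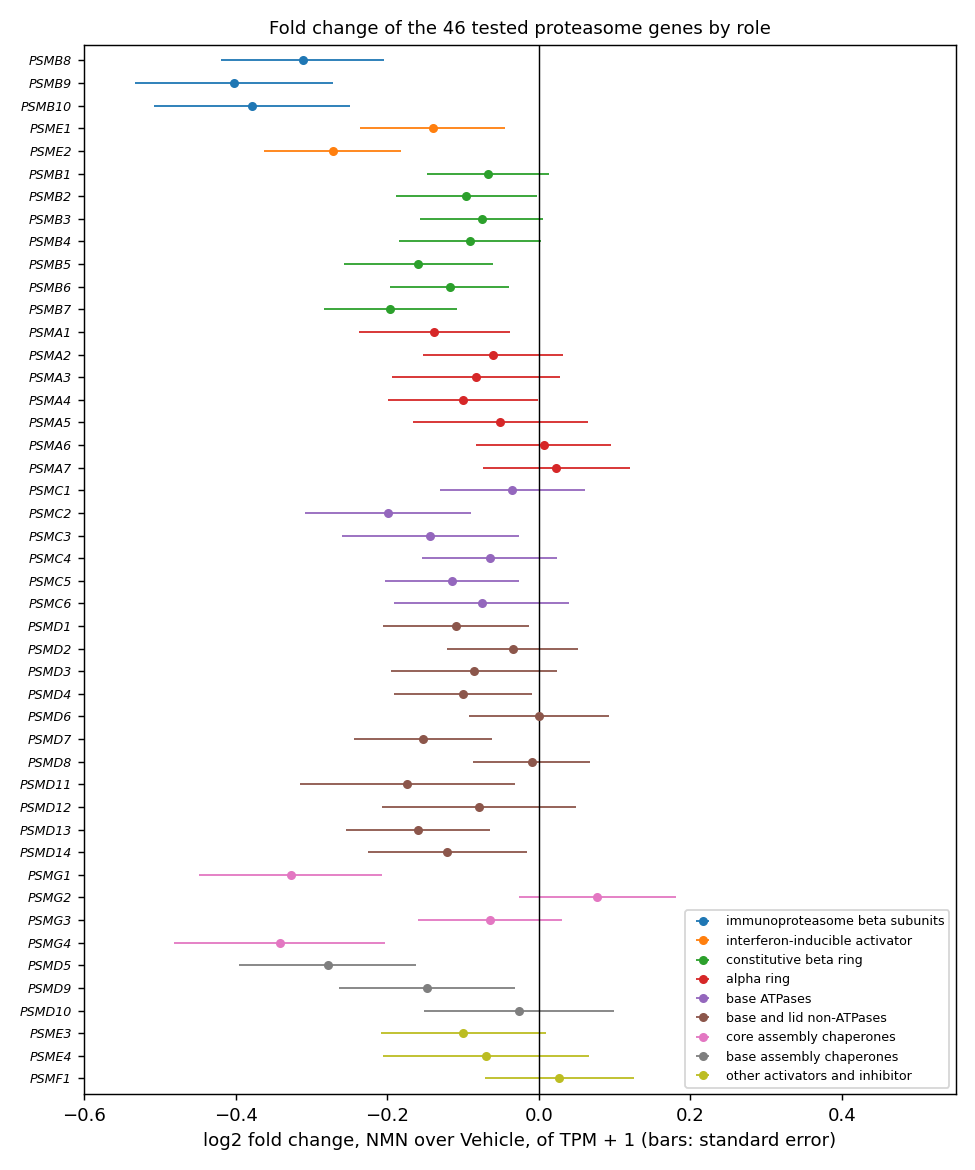
Difference between NMN and Vehicle on the log2(TPM + 1) scale for each of the 46 tested proteasome genes, grouped and coloured by role, with bars of 1 standard error from limma on either side. The immunoproteasome subunits, PSME2 and the chaperone genes PSMG1, PSMG4 and PSMD5 lie farthest left, and most core and regulatory particle subunits lie just left of 0.

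The largest differences among the inducible genes were in the catalytic subunits. PSMB9 (Entrez 5698, chr6:32844136-32859585, plus strand, GENCODE 29 on GRCh38), whose product takes the place of PSMB6, was at 13.8, 16.96, 16.1 and 19.1 TPM in Vehicle 1 to 4. The NMN tumors were at 11.5, 11.8, 12.7 and 12.7 TPM. All 4 NMN tumors were below all 4 Vehicle tumors and lay closer together than those. Means were 16.5 ± 2.18 and 12.2 ± 0.602 TPM (SD, n = 4 each), a difference of -0.40 ± 0.13 on the log2 scale (limma adjusted p = 0.459). The exact two-sided permutation p was 0.0286, the smallest that 4 against 4 allows. The annotated PSMB9 model overlaps PSMB8, PSMB8-AS1 and TAP1, and as strandedness is not given, reads from the overlapping stretches cannot be told apart.

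PSMB8 (chr6:32840717-32844703, minus strand), the counterpart of PSMB5, was at 53.2, 49.6, 44.0 and 51.8 TPM in Vehicle 1 to 4. In NMN 1 to 4 it was at 35.3, 38.8, 44.0 and 41.3 TPM. NMN 3 and Vehicle 3 shared the same value, and otherwise the groups were apart. Means were 49.7 ± 4.03 in Vehicle and 39.8 ± 3.71 in NMN, with a difference of -0.31 ± 0.11 (limma adjusted p = 0.5002, exact permutation p = 0.0571).

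PSMB10 (chr16:67934502-67937087, minus strand), the counterpart of PSMB7 and the gene with the interferon response core nearest its start above, was at 34.6, 42.6, 30.9 and 33.3 TPM in Vehicle 1 to 4. NMN 1 to 4 were at 25.9, 24.1, 26.3 and 31.4 TPM. Vehicle 2 was the highest tumor, and NMN 4 alone of its group reached into the Vehicle range. The difference was -0.38 ± 0.13 (limma adjusted p = 0.498, exact permutation p = 0.0571), between means of 35.4 ± 5.07 and 26.9 ± 3.15 TPM.

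The activator genes were far more abundant than the inducible core subunits. PSME2 (chr14:24143362-24147570, minus strand), the other inducible gene with that core in its window, was at 461, 474, 427 and 474 TPM in Vehicle 1 to 4. In NMN 1 to 4 it was at 345, 391, 364 and 423 TPM. No NMN tumor reached the lowest Vehicle tumor, although NMN 4 and Vehicle 3 were close. PSME2 overlaps RNF31 and MIR7703 in the annotation. The difference was -0.27 ± 0.09 (limma adjusted p = 0.471, exact permutation p = 0.0286). Its partner PSME1 (chr14:24136158-24138967, plus strand) was at 301, 271, 275 and 276 TPM in Vehicle and at 217, 276, 267 and 262 TPM in NMN. Here NMN 2 lay above 3 of the Vehicle tumors, and NMN 1 was the lowest of the 8; the gene overlaps EMC9. The difference was -0.14 ± 0.10 (limma adjusted p = 0.880, exact permutation p = 0.114), and -0.06 without NMN 1. The ratio of PSME2 to PSME1 was 1.638 ± 0.112 in Vehicle and 1.496 ± 0.124 in NMN (SD, n = 4 each), with overlapping ranges.

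**Figure D2:**
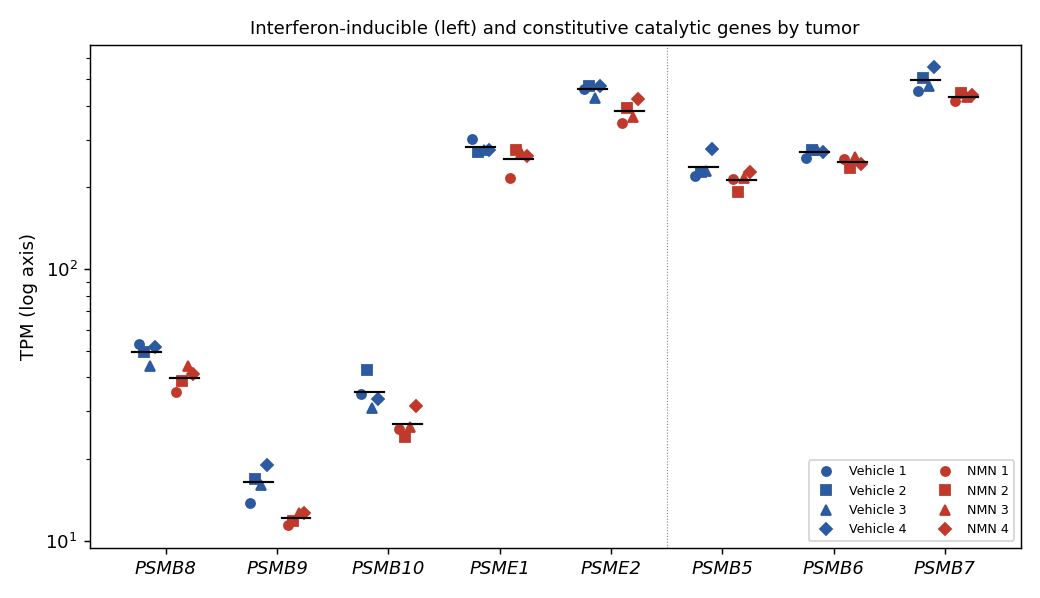
TPM on a log axis of the 5 inducible genes (left of the dotted line) and the 3 constitutive catalytic genes in each of the 8 tumors, with Vehicle in blue, NMN in red and the group mean as a bar. PSMB9 (11.5 to 12.7 TPM in NMN, 13.8 to 19.1 TPM in Vehicle), PSME2 and PSMB7 separate the groups, while PSME1, PSMB10, PSMB5 and PSMB6 overlap and PSMB8 has a tie.

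All 5 inducible genes thus had a lower mean in NMN, with a median difference of -0.31. The 14 constitutive core genes had a median of -0.09 and the 17 regulatory particle genes of -0.10 (-0.07 without Vehicle 4), with the median over all tested genes at 0.0040. Averaged over the 5 genes, the deviation from the mean of all tumors was 0.14, 0.21, 0.05 and 0.19 in Vehicle 1 to 4 and -0.28, -0.16, -0.11 and -0.05 in NMN 1 to 4. Every Vehicle tumor was above every NMN tumor on this score, but this was not particular to the inducible genes. The 7 constitutive beta genes also separated the groups, narrowly, with -0.009 to 0.13 in Vehicle and -0.12 to -0.015 in NMN. So did the 4 core chaperone genes, with 0.04 to 0.17 in Vehicle and -0.19 to -0.002 in NMN. For the 14 core genes the same score ran from -0.02 to 0.14 in Vehicle and from -0.08 to 0.00 in NMN, and the groups overlapped. Their summed TPM did not, at 3241.2 to 3594.5 in Vehicle and 3056.0 to 3239.2 in NMN. For the regulatory particle NMN 4, at 0.06, lay above Vehicle 1 and Vehicle 2.

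**Figure D3:**
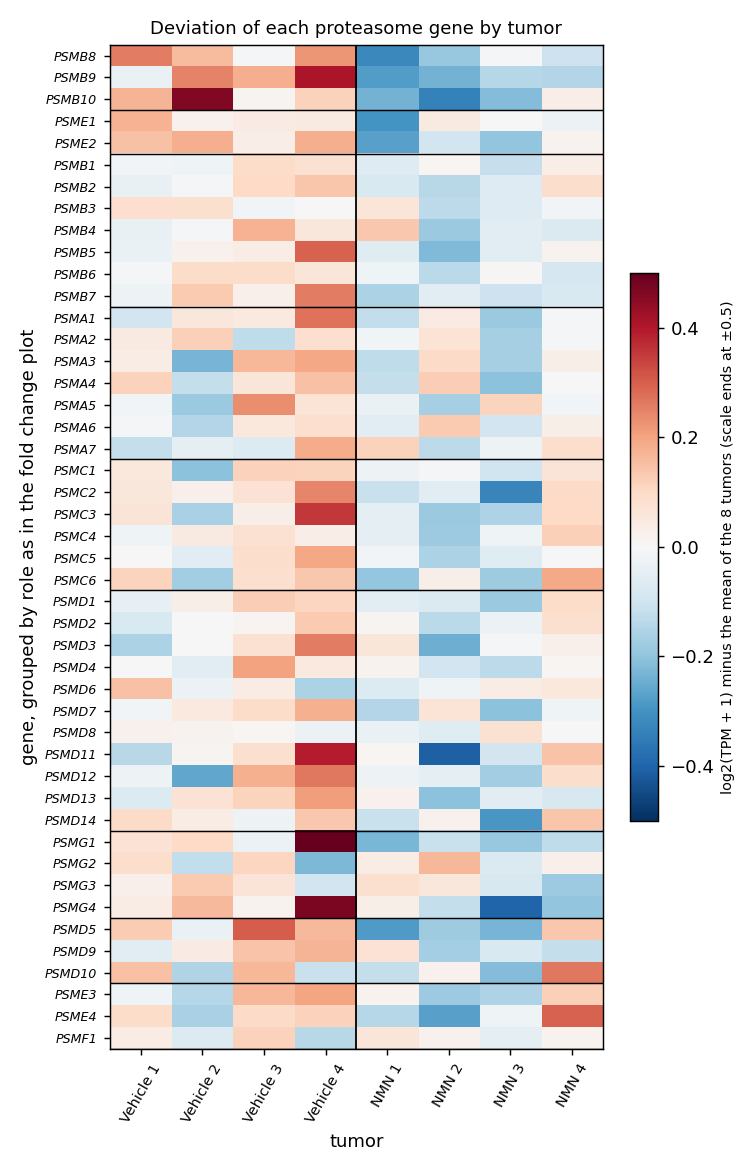
Deviation of each tested member's log2(TPM + 1) from its mean over the 8 tumors, by role and tumor, on a colour scale that ends at 0.5 in either direction. Vehicle 4 is above the mean for most core and regulatory particle genes, and the inducible genes are below the mean in most NMN tumors.

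The constitutive catalytic subunits were also lower on average, by less. PSMB7 (chr9:124353466-124415444, minus strand), which carries the trypsin-like site, was at 455, 507, 471 and 552 TPM in Vehicle 1 to 4 and at 415, 445, 429.7 and 439 TPM in NMN 1 to 4. The NMN tumors were all below the Vehicle tumors. The difference was -0.20 ± 0.09 (limma adjusted p = 0.711, exact permutation p = 0.0286), the only constitutive core gene with an unadjusted p under 0.05. PSMB5 (chr14:23016543-23035230, minus strand), with the chymotrypsin-like site, was at 219.6, 228, 231 and 276 TPM in Vehicle and at 216, 193, 217 and 228 TPM in NMN. Vehicle 4 stood above the rest, and the difference of -0.16 ± 0.10 (limma adjusted p = 0.860, exact permutation p = 0.0571) was -0.09 without it. PSMB6 (chr17:4796144-4798503, plus strand), with the caspase-like site, was at 257, 275, 275 and 269 TPM in Vehicle and at 254, 235, 259 and 243 TPM in NMN. These groups overlapped through NMN 3 and Vehicle 1, with a difference of -0.12 ± 0.08 (limma adjusted p = 0.874, exact permutation p = 0.0571).

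Transcripts for the inducible subunit were the minority of each catalytic pair in every tumor. PSMB8 made up 19.5, 17.9, 16.0 and 15.8% of the summed PSMB8 and PSMB5 TPM in Vehicle 1 to 4 and 14.1, 16.7, 16.9 and 15.3% in NMN 1 to 4, so the groups overlapped. PSMB9 made up 5.09, 5.81, 5.54 and 6.62% of its pair with PSMB6 in Vehicle and 4.31, 4.80, 4.67 and 4.94% in NMN, with no overlap. PSMB10 made up 7.08, 7.76, 6.17 and 5.68% of its pair with PSMB7 in Vehicle and 5.88, 5.13, 5.76 and 6.68% in NMN, again overlapping.

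The log2 ratio of inducible to constitutive subunit, which does not depend on the scaling of a library, was lower in NMN by the mean for all 3 pairs. For PSMB9 over PSMB6 it differed by -0.31 with a pooled SD of 0.134, and for the other pairs by about 1 pooled SD. PSMB10 over PSMB7 differed by -0.19, and by -0.11 without Vehicle 2 or -0.13 without NMN 2. PSMB8 over PSMB5 differed by -0.16, and by -0.09 without Vehicle 1 or -0.10 without NMN 1. Only the PSMB9 pair therefore separated the groups relative to its constitutive counterpart. No test was applied to these ratios.

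**Figure D4:**
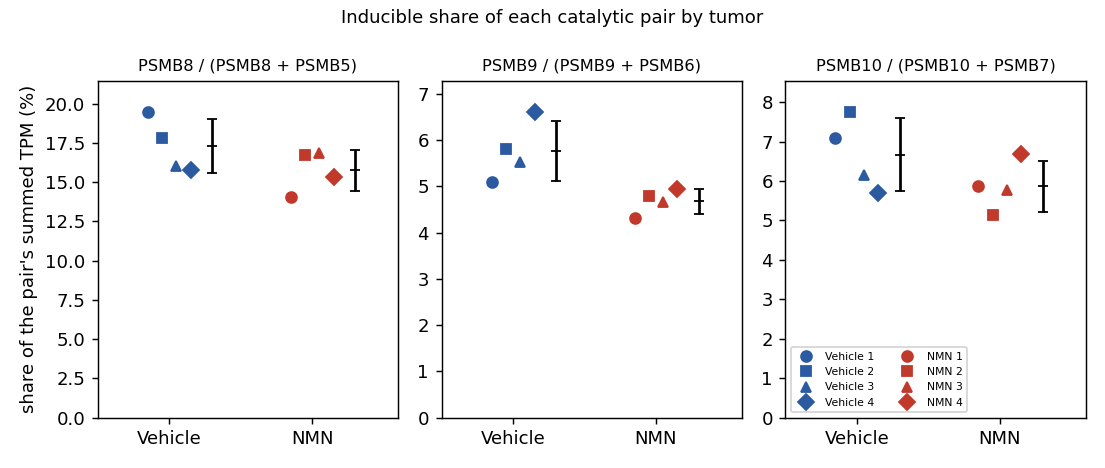
Inducible subunit as a percent of the summed TPM of its catalytic pair in each tumor, with the mean and SD of each group (n = 4) beside the points and axes that start at 0. The NMN tumors lie at 4.31 to 4.94% for PSMB9, below the Vehicle tumors at 5.09 to 6.62%, and the other pairs overlap.

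Core subunits, which are assembled in equal numbers, had RNA levels that differed widely. PSMB7 was the highest of the 14 constitutive core genes in every tumor and PSMA5, an alpha subunit, the lowest, with ratios of 9.35 to 13.6 between them. Averaged over the 8 tumors, PSMB7 stood at 464 ± 45.4 TPM, followed by PSMA6 at 379 ± 24.4, PSMB3 at 349 ± 18.1 and PSMA7 at 314 ± 25.6 (SD, n = 8). The ranges of PSMB7 and PSMA6 did not overlap, while those of PSMA6 and PSMB3, and of PSMB3 and PSMA7, did. From PSMB6, at 258 TPM, down through PSMA4, PSMB4, PSMB5, PSMB1 and PSMA3 to PSMA1, at 174 TPM, each gene overlapped the next. PSMA2 at 128 TPM and PSMB2 at 68.3 TPM each stood alone. Below them PSMB8 at 44.7 TPM overlapped PSMA5 at 42.6 TPM, which overlapped PSMB10 at 31.2 TPM, and PSMB9 at 14.3 TPM was last.

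The structural core genes varied little. Between replicates, the median SD on the log2 scale was 0.110 for the constitutive core and 0.122 for the 46 members, against 0.157 for the 3162 tested genes with a mean of at least 50 TPM and 0.210 for all tested genes. In the alpha ring, 5 of 7 genes had a lower mean in NMN, with differences from -0.14 for PSMA1 to 0.02 for PSMA7. All 7 constitutive beta genes had a lower mean. Without the catalytic genes, the remaining 11 core genes had a median of -0.08 and 0 with an unadjusted p under 0.05. At that level 2.15% of all genes were lower and 6.94% differed in either direction. The lowest adjusted p of the 11 core genes was 0.896, for PSMA1.

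The regulatory particle had no gene with an unadjusted p under 0.05 among 17, and 16 of the 17 had a lower mean in NMN. Over all genes 2.15% were lower at that level and 6.94% differed in either direction, so 0 of 17 lies near those shares. All 6 ATPase genes had lower means, and PSMC2 had the largest difference. It was at 67.8, 66.4, 68.5 and 77.5 TPM in Vehicle 1 to 4 and at 60.3, 62.8, 51.6 and 69.8 TPM in NMN 1 to 4. NMN 4 lay inside the Vehicle range, and the difference was -0.20 ± 0.11 (limma adjusted p = 0.819, exact permutation p = 0.114), or -0.12 without NMN 3. Among the 11 non-ATPase genes, 10 had lower means, and PSMD6, a lid subunit, was the same in both groups to 2 decimals, at 0.00. PSMD14, the deubiquitinase of the lid, was at 118 to 132 TPM in Vehicle and 98.1 to 133 TPM in NMN. PSMD2, the most abundant gene of the particle at a mean of 284 TPM, differed by -0.03, and PSMD4, a ubiquitin receptor, by -0.10. PSMD13 (chr11:236546-252984, plus strand, overlapping SIRT3, a mitochondrial NAD+-dependent deacetylase gene) was at 85.6, 94.5, 97.0 and 104 TPM in Vehicle and at 91.3, 77.7, 86.3 and 84.9 TPM in NMN. Its groups overlapped, with a difference of -0.16 ± 0.09 (limma adjusted p = 0.842, exact permutation p = 0.0857).

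Assembly chaperones, which help build the particle and then leave it, held the remaining members with low unadjusted p. PSMG1 (chr21:39174769-39183851, minus strand), which pairs with PSMG2 to seat the alpha ring, was at 67.4, 68.8, 62.8 and 91.8 TPM in Vehicle 1 to 4. In NMN 1 to 4 it was at 54.5, 59.2, 56.1 and 58.6 TPM. Vehicle 4 was far above the others, and all NMN tumors were below all Vehicle tumors. The difference was -0.33 ± 0.12 (limma adjusted p = 0.562, exact permutation p = 0.0286), and -0.21 without Vehicle 4. Its partner PSMG2 had a higher mean in NMN, by 0.08 (limma adjusted p = 0.958). The difference between PSMG1 and PSMG2 was not tested.

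PSMG4, which works with PSMG3 on the same ring, was at 25.5, 27.9, 25.2 and 34.8 TPM in Vehicle and at 25.4, 22.8, 18.6 and 21.6 TPM in NMN. NMN 1 lay within the Vehicle range, and Vehicle 4 was again the highest. The difference was -0.34 ± 0.14 (limma adjusted p = 0.639, exact permutation p = 0.0571), and PSMG3 differed by -0.06. PSMD5, a chaperone of the ATPase base, was at 76.0, 67.9, 86.0 and 77.8 TPM in Vehicle and at 56.9, 61.4, 59.0 and 76.5 TPM in NMN. NMN 4 alone of its group was inside the Vehicle range, and the difference was -0.28 ± 0.12 (limma adjusted p = 0.663, exact permutation p = 0.0857). The other base chaperones, PSMD9 and PSMD10, differed by -0.15 and -0.03.

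The activators and the inhibitor that are not induced by interferon showed no separation. PSME3, the nuclear relative of PSME1 and PSME2, was at 117, 107, 133 and 136 TPM in Vehicle and at 119.6, 104, 106 and 129 TPM in NMN. The groups overlapped throughout, with a difference of -0.10 ± 0.11 (limma adjusted p = 0.951, exact permutation p = 0.314). Without Vehicle 4 it was -0.050, and without Vehicle 2 -0.16. PSMF1, which encodes the inhibitor PI31, was at 41.1, 38.1, 43.4 and 36.3 TPM in Vehicle and at 41.7, 40.6, 38.7 and 40.5 TPM in NMN. It differed by 0.03 ± 0.10 (limma adjusted p = 0.987, exact permutation p = 0.686), and by -0.014 without Vehicle 4. PSME4, a large single-chain activator, differed by -0.07.

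Vehicle 4 had the highest level of 22 of the 46 tested members, and NMN 2 the lowest of 18. The highest tumor was a Vehicle tumor for 38 members and the lowest an NMN tumor for 38. Summed over all 48 members, TPM ranged from 6874 to 7541 in Vehicle and from 6405 to 6940 in NMN, with NMN 4 above Vehicle 2. These sums were 0.713 ± 0.0297% of a library in Vehicle and 0.662 ± 0.0227% in NMN (SD, n = 4 each). Of the 41 tested members outside the inducible set, 25 lay inside the Vehicle range in NMN 1, 15 in NMN 2, 18 in NMN 3 and 27 in NMN 4. Neither these counts nor those of the highest and lowest tumors were made over all genes. They therefore cannot tell a trait of the proteasome genes from one of the libraries as a whole.

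Genes that work with the proteasome but lack a PSM name lay close to the median of all genes. Of 26 such genes tested, 18 had a lower mean, the median difference was -0.03, and 0 were called after adjustment. POMP, the chaperone that completes the core, differed by -0.10 ± 0.09 (limma adjusted p = 0.920). NFE2L1, the factor that raises proteasome genes when proteolysis is impaired, differed by -0.14 ± 0.15 (limma adjusted p = 0.952). At an unadjusted p under 0.05, 6.94% of all genes differed in either direction. Of the 26 genes here, 1 differed at that level, with a higher mean in NMN. It was MAFF, a small MAF protein that pairs with NFE2L1 and NFE2L2 on antioxidant elements, at 15.5, 24.3, 18.6 and 18.1 TPM in Vehicle and 32.5, 34.6, 35.7 and 21.4 TPM in NMN. NMN 4 was inside the Vehicle range and the other NMN tumors above it, with a difference of 0.66 ± 0.18 (limma adjusted p = 0.348). Its relative MAFK differed by 0.25 ± 0.15 (limma adjusted p = 0.837), and TXNL1, a thioredoxin-like partner of the regulatory particle, by -0.17 ± 0.11 (limma adjusted p = 0.866).

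Among 22 genes of interferon gamma signalling and class I peptide loading, 17 had a lower mean in NMN, with a median of -0.19 and 0 called after adjustment. At an unadjusted p under 0.05, IRF1 and ERAP2 were lower and IFNGR2, a receptor chain, was higher. The lower genes are 9.09% of this list, where 2.15% of all genes were lower and 6.94% differed in either direction. IRF1, the transcription factor that acts on interferon response elements, was at 9.80, 12.5, 8.37 and 10.5 TPM in Vehicle 1 to 4 and at 7.87, 5.37, 7.55 and 8.02 TPM in NMN 1 to 4. The groups did not overlap, with a difference of -0.46 ± 0.17 (limma adjusted p = 0.553, exact permutation p = 0.0286). ERAP1, which trims peptides for class I, was the other gene of the list without overlap, at -0.25 ± 0.13 (limma adjusted p = 0.805). IRF1 and ERAP1 are 9.09% of the list, against 0.966% of all genes lower without overlap and 3.05% in either direction.

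NLRC5, the activator of class I genes, differed by -0.23 ± 0.19 (limma adjusted p = 0.921). TAP1, which faces PSMB9 across their shared start region, was at 20.2, 25.2, 21.3 and 35.3 TPM in Vehicle and at 18.4, 14.3, 19.4 and 24.9 TPM in NMN. NMN 4 overlapped the Vehicle range, and the difference was -0.38 ± 0.20 (limma adjusted p = 0.803). ERAP2, a second trimming peptidase, differed by -0.41 ± 0.18 (limma adjusted p = 0.715) and IFNGR2 by 0.26 ± 0.11 (limma adjusted p = 0.687).

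Across the 8 tumors, the 5 inducible genes and PSMB5, PSMB6 and PSMB7 were each correlated with regulators of the pathway, IRF1 and NLRC5 among them, and p-values were adjusted over all 24 relations computed. After Benjamini-Hochberg adjustment, 2 had p under 0.05 by Pearson's r, of which the relation of PSMB10 with IRF1 is given here, and 0 by Spearman's rho. PSMB10 followed IRF1 with r = 0.924 (exact permutation p = 0.00198, adjusted p = 0.0274) and rho = 0.929 (adjusted exact permutation p = 0.0536). Without Vehicle 2 and NMN 2, the tumors farthest from the IRF1 median, r was 0.822.

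The other inducible genes had a lower r with IRF1, none past the threshold. Pearson's r was 0.748 for PSMB9, 0.733 for PSMB8, 0.707 for PSME2 and 0.195 for PSME1, with adjusted exact permutation p of 0.136, 0.144, 0.160 and 0.613. The constitutive PSMB6 stood at 0.787 (adjusted exact permutation p = 0.122). IRF1 separates the groups, so these relations and the group differences rest on the same tumors, and 4 tumors a group are too few to correlate within groups. After leaving out 1 tumor, the number of relations under 0.05 was 0 without Vehicle 3, NMN 1 or NMN 3, and 1 without Vehicle 4 or NMN 2. The r of PSMB10 with IRF1 stayed between 0.874 and 0.949 throughout, while its adjusted exact permutation p reached 0.105 without NMN 3.

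**Figure D5:**
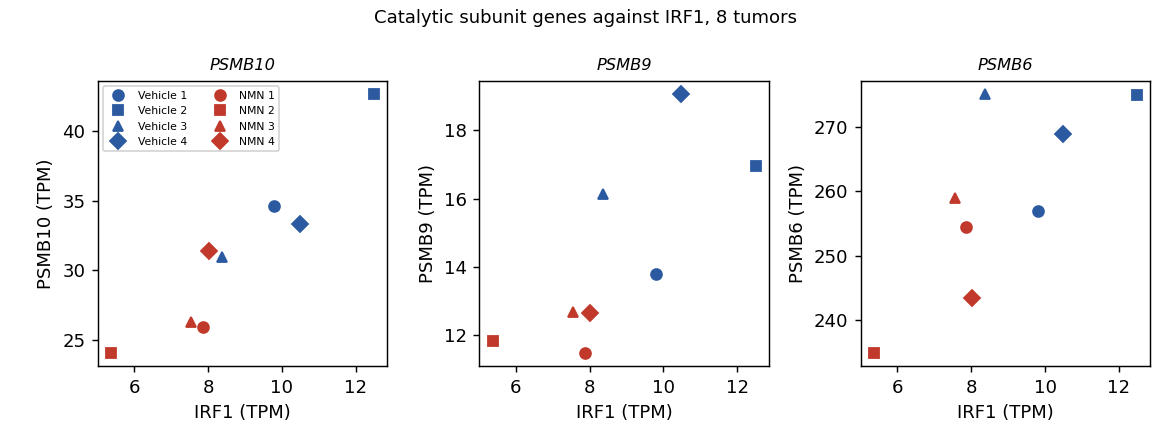
TPM of PSMB10, PSMB9 and PSMB6 against IRF1 TPM in the 8 tumors, with Vehicle in blue and NMN in red. PSMB10 follows IRF1 with r = 0.924, PSMB6 with 0.787 and PSMB9 with 0.748 on the log2 scale, and the NMN tumors have IRF1 at 5.37 to 8.02 TPM, below the Vehicle tumors at 8.37 to 12.5 TPM.

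The tumors carried basal epithelial genes with little hormone receptor RNA. Marker genes of several cell types differed between the groups at an unadjusted p under 0.05, and 0 were called after adjustment. Over all genes, 2.15% were lower and 6.94% differed in either direction at the unadjusted level. KRT5 and KRT14, basal keratins, were at 2603 TPM or more, ESR1 at 3.37 to 6.00 TPM, PGR at 0 to 0.02 TPM and ERBB2 at 77.6 to 130.03 TPM. Of 9 epithelial and basal markers, 3 were higher in NMN at an unadjusted p under 0.05 and 0 lower. KRT8, a luminal keratin, was at 265 to 542 TPM in Vehicle and 707 to 909 TPM in NMN without overlap, a difference of 1.07 ± 0.21 (limma adjusted p = 0.221), and EPCAM and KRT18 differed by 0.43 and 0.33. Skeletal muscle markers (15 genes) summed to 98.7 to 741 TPM in NMN and 500 to 2941 TPM in Vehicle. At an unadjusted p under 0.05, 14 of the 15 were lower in NMN. The remaining marker, MB, was higher at the same level, by 0.81 ± 0.34 (limma adjusted p = 0.651). ACTA1, muscle actin, was at 0.36 to 1.16 TPM in NMN 1 to 3. In NMN 4 it was at 268 TPM, inside the Vehicle range of 178 to 1024 TPM. Of the 5 inducible genes, NMN 4 was inside the Vehicle range for PSMB10 and below it for the other 4, and it was inside that range for 27 of the 41 other tested members. For PSME2 it was only just below, at 423 TPM against 427 TPM in the lowest Vehicle tumor. The share of all genes inside that range in NMN 4 was not counted, so these counts are description only. Fibroblast markers (10 genes) summed to 121 to 237 TPM in NMN and 192 to 292 TPM in Vehicle. All 5 fibroblast markers tested had a lower mean in NMN, and 3, the collagen genes COL1A1, COL1A2 and COL3A1, differed by -0.60, -0.61 and -0.61 at an unadjusted p under 0.05, while DCN, LUM and THY1 were at or near 0. Of 6 endothelial markers, KDR was higher in NMN without overlap, by 0.81 ± 0.21 (limma adjusted p = 0.312), and VWF, the other one tested, differed by -0.29. TEK, too low to be tested, was lower in NMN without overlap, at 0.06 to 0.24 TPM against 0.31 to 0.54 TPM in Vehicle. PECAM1, CDH5 and CLDN5, also too low to be tested, overlapped. Of 14 leukocyte markers 10 are in the table, summing to 54.7 to 94.0 TPM in NMN and 58.4 to 79.5 TPM in Vehicle. Most of that sum was CD68, at 21.4 to 63.7 TPM, and CD14. Of the 7 leukocyte markers tested, 5 had a lower mean in NMN, and AIF1, a macrophage gene, differed by -0.57 ± 0.20 at an unadjusted p under 0.05 (limma adjusted p = 0.533). Among the leukocyte genes, PTPRC, the pan-leukocyte gene, was at 0.13 to 0.21 TPM in NMN and 0.27 to 0.39 TPM in Vehicle, and NKG7 was listed at 0 in 7 tumors. The treatment of reads of mouse origin is not stated, and the part of muscle, fibroblast, endothelial, epithelial and leukocyte RNA in the differences above was not tested.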

How the data were processed

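The authors deposited 1 table, named as TPM, with a value per gene for each of the 8 tumors. RSEM 1.2.8, Bowtie2 2.2.5, HISAT2 2.1.0 and the human build GRCh38.p13 are listed, with no role or order, in the submitters' processing notes. Every library sums to 1000000, so sequencing depth is unknown and no counting interval can be given. TPM are relative, so more RNA of one kind lowers every other value.

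From these values, log2(TPM + 1) was fitted with limma 3.58.1 (R 4.3.3; mean-variance trend, 2-sided, NMN against Vehicle, no covariate) for genes with at least 1 TPM in at least 4 tumors. Benjamini-Hochberg adjustment covered all 13358 genes, with a threshold of 0.05. The fit was tested on simulated data. Exact permutation tests and correlations used scipy 1.17.1 in Python 3.11.15.

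Given in every tumor were PSMB5 to PSMB10, PSME1, PSME2, PSME3, PSMF1 and the 5 further members with the smallest unadjusted p. Of the partner and interferon lists, named regulators were always given, with up to 3 further genes of each by p; some results, among them relations counted in the 24, are not reported here. Members, lists and motifs were chosen with earlier results of these data known, so no list has a test of its own. Gene positions come from GENCODE 29 (all 48 matched, 28 overlap another gene) and promoter sequences from RefSeq on GRCh38.p14. Other pseudocounts, filters, scalings, limma settings, a replicate block and leaving out each tumor made 18 alternatives.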

Additional observations from a re-analysis of the deposited data

Results flagged for a closer look

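Among the 4 Vehicle tumors, PSME1 was at 301.41 TPM in Vehicle 1, with the others between 270.88 and 275.51 TPM. That gap is 0.848 of the group's range, above Dixon's critical value for 4 samples. PSME4, the single-chain activator, was at 28.12 TPM in Vehicle 2 and between 33.72 and 34.33 TPM in the other Vehicle tumors, a gap of 0.902 of the range. These are 2 of 98 groups examined, and chance alone flags about 1 in 20.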

How the results depend on the processing

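None of the 18 alternatives called a proteasome gene after adjustment. The smallest adjusted p of a member under any of them was 0.154, for PSME2 with limma's library quality weights, and each of the 15 genes given in every tumor had an adjusted p above 0.99 under at least 1 alternative. Between 39 and 44 of 46 members had a lower mean in NMN (43 of 48 with no filter), and 4 to 10 had a lower level at an unadjusted p under 0.05. The 10 came with library quality weights, where 634 of all genes were lower in place of 287. The 4 came without NMN 1, where 189 of all genes were lower, and without Vehicle 4, where 292 were. The medians of the inducible, core and regulatory particle genes kept their sign in the 14 alternatives run for them, and the ratio differences kept theirs with each tumor left out, the only alternatives run for those. Over all genes, the number called was 0 as reported, 54 with library quality weights, 2 with the replicate block and 0 to 54 when 1 tumor was left out, with 54 without NMN 4 and 1 without Vehicle 3. The cause was not tested. At an unadjusted p under 0.05, 640 genes were higher and 287 lower as reported, 684 and 442 after median-of-ratios scaling, 640 and 508 after quantile normalization, and 624 and 652 without NMN 4.

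The 2 adjusted correlations became 0 after median-of-ratios scaling, where PSMB10 with IRF1 kept r = 0.927 with an adjusted exact permutation p of 0.0512, and 0 to 2 when 1 tumor was left out. With 1 tumor left out PSMF1 ranged from -0.014 to 0.070, and it changed sign without Vehicle 4. The tumors share only a replicate number: same-numbered tumors deviated with r from -0.123 to 0.0258, and 0 of 8 correlated best with its own number. With the replicate block 0 members were called, and PSMB9 had a limma adjusted p of 0.387. Without counts, the precision of low genes such as PSMB9 cannot be stated, and with 4 tumors a group no exact test goes below 0.0286.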

Other observations

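Genes outside the proteasome whose pattern over the 8 tumors was most like the mean log2 level of PSMB8, PSMB9 and PSMB10 were not mainly interferon genes. Among 13312 genes ranked by Pearson's r, those among the highest 10 that are given here start with GADD45GIP1, a mitochondrial ribosome protein gene, at r = 0.943. It was at 132, 143, 122 and 148 TPM in Vehicle 1 to 4 and at 109.5, 111, 120.3 and 129 TPM in NMN 1 to 4, and NMN 4 reached into the Vehicle range. The next were HOXA2 at 0.931, the aldehyde dehydrogenase gene ALDH3A1 at 0.928 and the cyclooxygenase gene PTGS1 at 0.928. NGFR, CHST1, DEF6, C12orf54 and NSMCE1 followed at 0.924 to 0.902. IRF1 ranked 19 at 0.886 and TAP1 ranked 187 at 0.763. These are the highest of many correlations over 8 shared tumors, 4 in each group, so genes that differ between the groups rank high, and no test was applied.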
